A study of Mus musculus with 15 samples.

Results

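Potassium channel genes were taken as every gene of the deposited gene list whose symbol begins with Kcn, other than the antisense transcript Kcnq1ot1. The rule found 96 entries with 94 symbols among 26145 genes, because Kcnb2 and Kcnh8 are each listed under a pair of identifiers. The entries comprise 79 that encode a pore-forming subunit and 17 that encode a partner subunit or regulator. The data are single-cell RNA counts of the prefrontal cortex (PFC) of male C57BL/6N mice, made with the 10x Chromium platform in 15 libraries that each pool the tissue of 2 mice. Of these, 12 come from P60 mice (8-10 weeks of age) that pressed for intravenous cocaine or for saline, taken during maintenance, after 48 h or after 15 d of withdrawal, with 2 libraries for each treatment and Period. The other 3 libraries come from untreated P21 mice (3 weeks). The P60 saline mice had surgery and self-administration sessions that the P21 mice had not, so age and this history cannot be told apart in the age comparison. The study implanted catheters at P60, so this tissue was taken later, after the sessions and any withdrawal. To match P21 with P60 cells the study used a rank correlation, meant to limit bias from differing sequencing technologies. A technical difference between the P21 and P60 libraries cannot be told apart from age either. The study lists 4 mice for P21, fewer than 3 separate pools of 2 would need, so the P21 libraries may share animals and the p-values measure only the spread between these libraries. No label says that the P60 libraries of a group came from separate cohorts.

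Potassium channels let potassium ions leave or enter a cell along their electrochemical gradient, and so set the resting potential, end action potentials and time the next one. Voltage-gated (Kv) channels open on depolarisation, inward rectifiers (Kir) and leak channels (K2P) hold the resting potential, and calcium-activated channels (BK and SK) couple firing to calcium entry. In cortex they are known for separating fast-spiking from regular-spiking neurons, and in glia and the vessel wall for clearing potassium and setting tone.

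All pore-forming families share 1 stretch of coding sequence, the selectivity filter, which is shown for 8 members whose levels carry the results below. The potassium channel signature was searched in codons (a threonine or serine codon, any codon, a glycine codon, a tyrosine or phenylalanine codon and a glycine codon), in frame on the coding strand of the longest coding sequence of each gene (NCBIM37, the assembly behind mm9, with GENCODE M1). Of the 79 pore-forming entries, 77 hold this motif (97.5%), against 0 of the 17 others and 2.47% of all 22737 coding genes. The entries without it are short models of Kcnb2 and Kcnh8. All 14 K2P members matched and 11 of them matched in 2 places, as is known for a subunit with a pair of pore loops. Each line gives the exon stretch 5′ to 3′ on the coding strand, with the last 3 codons of the signature in capitals.
Kcna1, chr6:126592240-126592269, minus strand, exon 2 of 2: tccatgaccactgtgGGATACGGTgacatg
Kcnc1, chr7:53683334-53683363, plus strand, exon 2 of 4: accatgacgacactgGGCTATGGAgacatg
Kcnc2, chr10:111893276-111893305, plus strand, exon 3 of 5: accatgactaccttaGGTTACGGGgatatg
Kcnv1, chr15:44940829-44940858, minus strand, exon 3 of 3: tccatgactacagtaGGATATGGGgacatt
Kcnma1, chr14:24347629-24347658, minus strand, exon 7 of 30: acaatgtctacagtgGGTTATGGGgacgtt
Kcnh3, chr15:99063351-99063380, plus strand, exon 8 of 15: agtctcaccagtgtgGGCTTCGGCaacgtg
Kcnj10, chr1:174299424-174299453, plus strand, exon 2 of 2: tcccagaccaccatcGGCTATGGCttccgc
Kcnj8, chr6:142514962-142514991, minus strand, exon 3 of 3: gttcaagtgaccattGGGTTTGGAgggaga
The middle codon in capitals is TTC in Kcnh3 and TTT in Kcnj8, and a tyrosine codon in the other 6.

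The series holds 24822 cells at P60 and 10538 at P21, with 1055 to 4439 cells and 8375172 to 42892922 unique molecular identifiers (UMIs, counted RNA molecules) per library. Median UMIs per cell ran from 3426 to 11334.5, and the libraries of 15 d withdrawal were among the deepest. The deposited cell classification puts each cell in an L2 cluster, the finest level, and the clusters were taken here as 8 classes by their names. The deposited CellType column gives 492 cells another class than their cluster, 459 of them at P21, and with classes from that column more genes were called with age in microglia (42.4% of all genes in place of 0.726%) and astrocytes (7.63% in place of 1.11%). UMIs were summed per library and class and given as counts per 1000000 UMIs (CPM) over all genes other than mitochondrial and ribosomal protein genes. The classes carried their defining markers. Gad1, Gad2 and Slc32a1 summed to 2972 to 4113 CPM in inhibitory neurons of the P60 saline libraries and to 0.362 to 4.46 CPM in excitatory neurons. The class called endothelial (Endo) held pericyte and smooth muscle markers (Rgs5, Vtn, Acta2, Tagln; 4291 to 7222 CPM at P60) beside Flt1, Cldn5 and Pecam1 (3881 to 7020 CPM), so it is called the vascular class here. The tissue field of the labels reads NAc while the titles and source read PFC, and 14443 of the P60 cells were in the excitatory class, whose marker list includes Slc17a7. Microglia, astrocytes and oligodendrocyte precursors held Snap25 and excitatory markers at 92.0 to 2013, 89.9 to 2367 and 199 to 1832 CPM per library, against 5413 to 6956 CPM in excitatory neurons at P60. Low glial values of members that are high in neurons, such as Kcnh3 at 10.8 CPM in microglia, stand beside these marker values, and the part that neuronal RNA has in them was not tested.

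Potassium channel genes were spread over all 8 classes at P60. Of the 96 entries, 93 had at least 1 UMI at either age, 55 reached a mean of 10 CPM in at least 1 class at P60, and 41 stayed under 10 CPM in every class. Kcnj1, Kcnk16 and the second Kcnh8 entry had 0 UMIs at both ages. Counts are by gene model, and a short Kcnb2 model without the signature (ENSMUSG00000090498) held 3314 UMIs at P60. Whether RNA outside a gene model lowers the count of an entry was not tested. Among the 55, the highest mean was in excitatory neurons for 23, inhibitory neurons for 14, oligodendrocyte precursors for 6, astrocytes for 4, the vascular class for 3, microglia for 2, mature oligodendrocytes for 2 and newly formed oligodendrocytes for 1. Only 15 of the 55 reached 10 CPM in a single class and 22 did so in 4 or more. The classes were defined from the same cells with these genes among those available, so class levels are given as a description without a test. Levels are compared for 1 gene over classes, and the order of different genes by level served only to choose which to name.

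**Figure D1:**
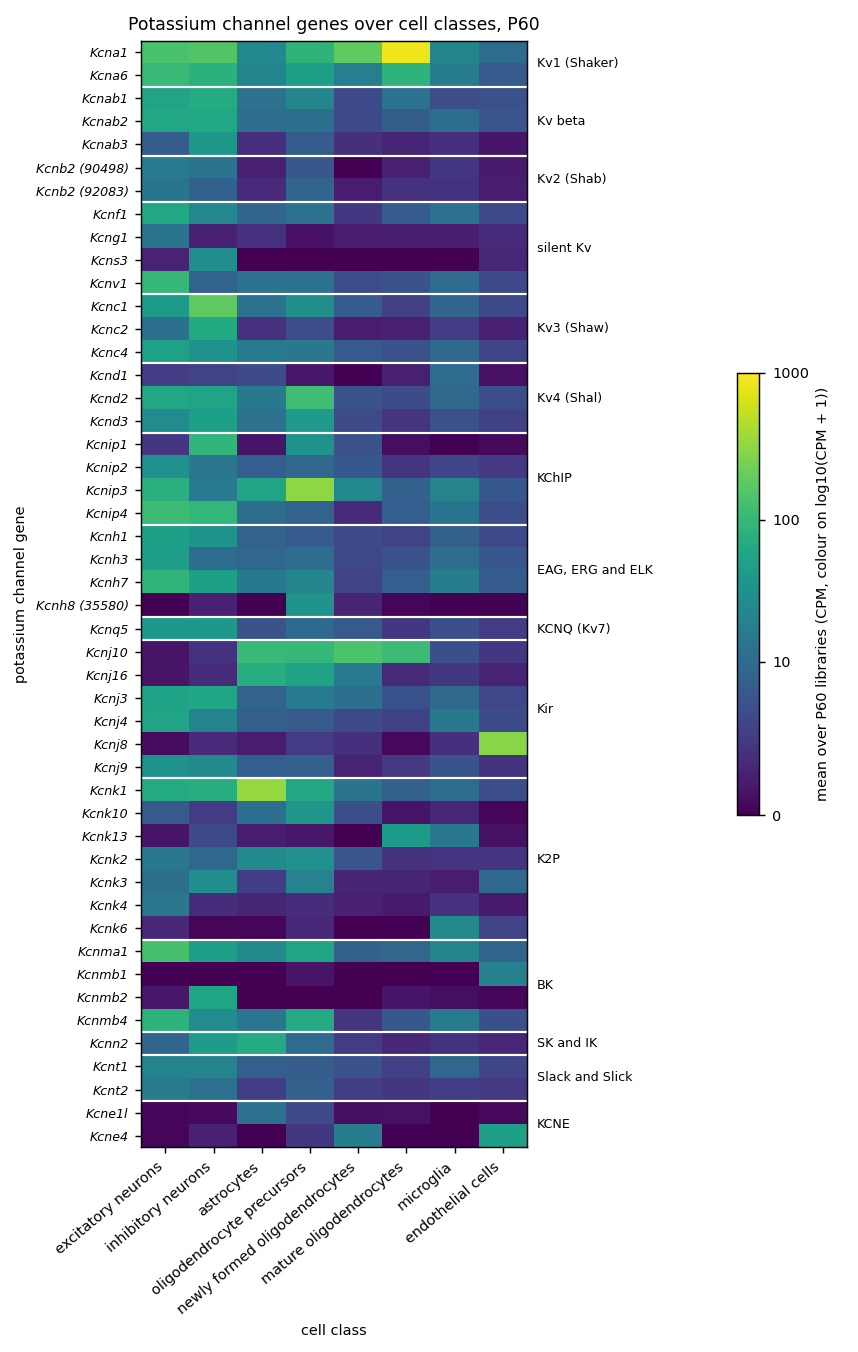
Heat map of 48 of the 55 entries with a mean of at least 10 CPM in a class at P60 (rows, by family; digits in parentheses are the last digits of the identifier where a symbol is listed more than once) over the 8 cell classes (columns), coloured by the mean CPM over P60 libraries on a log10(CPM + 1) scale. Most rows are brightest in the neuronal columns, while Kcna1 (848 CPM in mature oligodendrocytes), Kcnj8 (289 CPM in the vascular class), Kcnk1 (331 CPM in astrocytes) and Kcnip3 (310 CPM in oligodendrocyte precursors) are brightest outside neurons.

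Kv1 (Shaker) genes encode low-threshold channels of axons. Kcna1 (chr6:126586481-126595819), whose channel sits beside the nodes of Ranvier, was detected at 10 CPM or more in all 8 classes and was highest in mature oligodendrocytes. There it ran from 711 to 1149 CPM with a median of 801 over 12 libraries, against 186 ± 90.7 CPM (SD, n = 11) in newly formed oligodendrocytes, 155 ± 41 in inhibitory and 136 ± 19 in excitatory neurons (n = 12). No library of mature oligodendrocytes fell within the range of newly formed oligodendrocytes, where the highest was 321 CPM. Over the 13 mature oligodendrocyte clusters Kcna1 pooled to between 760 (Oligo_1) and 996 CPM (Oligo_7), so the level was shared by the clusters. Kcna6, a related subunit, reached 103 ± 11 CPM in excitatory neurons and 82.2 ± 23 in inhibitory ones. Kcna2, often found in the same channels as Kcna1, was counted at under 3 CPM in every class, on 158 UMIs at P60. The part of its gene model in this value was not tested. Of the Kv beta subunits, which bind Kv1 channels in the cytoplasm, Kcnab1 (68.2 ± 16 CPM in inhibitory against 55.4 ± 6.7 in excitatory neurons) and Kcnab2 (61.4 ± 12 against 60.9 ± 7.4) had overlapping libraries. Kcnab3 was at 38.9 ± 18 CPM in inhibitory and 6.77 ± 2.5 CPM in excitatory neurons.

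Kv2 (Shab) channels are delayed rectifiers of the soma, and the silent subunits, which form no channel alone, modify them. The silent subunits divided between the neuronal classes. Kcnv1 (chr15:44937830-44946480) ran from 85.5 to 119 CPM (median 94.7) in excitatory libraries and from 0 to 20.6 CPM (median 7.32) in inhibitory ones. Kcnf1 was at 61.4 ± 6.7 against 24.3 ± 12 CPM, and Kcng1 at 13.2 ± 3.0 against 0.887 ± 1.1 CPM. Kcns3 had the opposite order, with 18.2 to 48.3 CPM (median 28.7) in inhibitory neurons and 0.974 ± 0.34 CPM in excitatory neurons. These 4 are the silent subunits that reached 10 CPM in a class, of 10 entries, and the libraries of the 2 neuronal classes did not overlap for any of them. Kcns1, a silent subunit under that level, did not overlap either (excitatory mean 5.19 CPM, inhibitory mean 0.815 CPM). No other silent entry was separated. Over all genes 6.71% did not overlap, but that share has no level cut, so it is not a matched background for the 4.

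Kv3 (Shaw) channels open at high voltage and close fast, which allows high firing rates. Kcnc1 ran from 109.7 to 239 CPM (median 189) in inhibitory neurons and from 36.4 to 47.4 CPM (median 42.4) in excitatory neurons, without overlap. Kcnc2 was also higher on average in inhibitory neurons (64.9 ± 28 against 11.8 ± 2.4 CPM), but its lowest inhibitory library, at 10.6 CPM, lay within the excitatory range of 8.17 to 15.9 CPM. Kcnc4, of the same family, had overlapping libraries in the neuronal classes.

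Kv4 (Shal) channels carry the A-type current of dendrites, and the KChIP proteins (Kcnip genes) are their calcium-binding partners. Kcnd2 was highest in oligodendrocyte precursors (118 ± 29 CPM, n = 11), above every excitatory library (54.3 to 70.3 CPM). Kcnip3 (chr2:127282234-127347830) was highest in the same class at 198 to 493 CPM with a median of 253, against 57.4 to 91.5 CPM in excitatory neurons. Kcnd3 was at 48.9 ± 11 CPM in inhibitory and 26.6 ± 2.8 CPM in excitatory neurons. Kcnip1 divided the neuronal classes, with 49.5 to 129 CPM (median 92.3) in inhibitory libraries and 0.671 to 3.99 CPM (median 1.79) in excitatory libraries. Kcnip4, at 113 ± 13 and 95.2 ± 17 CPM in excitatory and inhibitory neurons, did not, and Kcnip2 was at 32.1 ± 3.8 against 14.5 ± 7.7 CPM. Kcnip3 overlaps a 7SK copy on its own strand and a gene model on the other. Kcnd1 reached 10.2 ± 4.3 CPM in microglia, on 1 to 13 UMIs in each of the 8 microglial clusters.

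The EAG, ERG and ELK group (Kcnh genes) are voltage-gated channels with a cytoplasmic Per-Arnt-Sim domain. Kcnh7 (89.8 ± 6.4 against 48.1 ± 16 CPM) and Kcnh3 (46.4 ± 5.9 against 11.1 ± 3.8 CPM) were higher in excitatory than in inhibitory neurons with no overlap of libraries. Kcnh1 was at 47.9 ± 5.3 and 34.3 ± 15 CPM. Kcnh8 (ENSMUSG00000035580) was seen in oligodendrocyte precursors at 10.3 to 63.3 CPM (median 32.3), and its next class held 1.02 CPM. Among the KCNQ genes, which carry the M current, Kcnq5 had overlapping libraries in the neuronal classes (38.4 ± 4.2 CPM in the excitatory and 38.6 ± 12 CPM in the inhibitory one). Kcnq1, known from heart and epithelia, was at 6.24 ± 2.7 CPM in the vascular class and under 0.2 CPM in every other class.

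Among inward rectifiers, Kcnj8 (chr6:142513459-142519876), which with a sulfonylurea receptor forms the vascular ATP-sensitive channel, had 217 to 349 CPM (median 293) in the vascular class and at most 2.36 CPM on average in any other class. Within that class it pooled to between 12.0 CPM in Endo_7, where Vtn was at 340 CPM, and 715 CPM in Endo_5, where Vtn was at 6804 CPM. Other markers of the pericyte and smooth muscle list did not all have this order. Acta2 was at 1.72 CPM in Endo_7 and 0.795 CPM in Endo_5, and Tagln at 1.72 and 0 CPM. In Endo_2, with Rgs5 at 5077, Acta2 at 935 and Tagln at 360 CPM, Kcnj8 was at 94.8 CPM. Kcnj10, the potassium-clearing channel of glia, was shared by 4 glial classes. It ran from 89.7 to 209 CPM in newly formed oligodendrocytes, 67.7 to 133 CPM in mature oligodendrocytes, 92.4 to 142 CPM in astrocytes and 45.7 to 161 CPM in oligodendrocyte precursors, so these ranges overlapped. It was at 0.49 ± 0.36 CPM in excitatory neurons. Kcnj16, its partner subunit, was at 73.5 ± 16 CPM in astrocytes and 52.9 ± 20 in oligodendrocyte precursors but 1.33 ± 1.7 in mature oligodendrocytes. The G protein-gated subunits Kcnj3 (53.5 ± 4.6 and 56.5 ± 13 CPM) and Kcnj9 (34.1 ± 3.6 and 24.6 ± 8.5 CPM) overlapped between excitatory and inhibitory neurons, whereas the classical rectifier Kcnj4 was at 55.6 ± 7.9 against 21.4 ± 10 CPM without overlap.

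The 7 leak channel (K2P) members at 10 CPM or more had their highest levels in 6 different classes, more than any other family. Kcnk1 (chr8:128519002-128554583) ran from 199 to 456 CPM (median 342) in astrocytes, against 73.1 ± 14 CPM in inhibitory and 69.3 ± 10 CPM in excitatory neurons. Kcnk4 was an excitatory gene at 11.6 to 16.6 CPM (median 14.3) and under 1.7 CPM elsewhere. Kcnk13 was at 41.9 ± 15 CPM in mature oligodendrocytes and 15.1 ± 11 in microglia, and within oligodendrocytes it pooled to 8.87 CPM in Oligo_1 and to 67.7 CPM in Oligo_5. Kcnk6 was a microglial gene at 16.6 to 44.1 CPM (median 23.2), with 3.05 ± 2.0 CPM in the vascular class. Kcnk10 was at 37.6 ± 15 CPM in oligodendrocyte precursors and 11.5 ± 5.0 in astrocytes. Kcnk3 was at 28.5 ± 8.7 CPM in inhibitory and 11.9 ± 2.0 CPM in excitatory neurons.

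The BK channel is built from Kcnma1 and tuned by the beta subunits. The pore gene and the neuronal beta gene had the same order between the excitatory and inhibitory classes as wholes. Kcnma1 ran from 124 to 147 CPM (median 132) in excitatory and from 24.8 to 67.1 CPM (median 50.1) in inhibitory neurons. Kcnmb4, the neuronal beta subunit, was at 86.8 ± 8.7 against 27.3 ± 9.8 CPM. Its inhibitory clusters were uneven, with 113 CPM pooled in Inhib_2 and 11.1 CPM in Inhib_9, against a median of 74.5 CPM over the neuronal clusters. Kcnmb2 (chr3:31801429-32099102), which inactivates the channel, had the opposite order, with 29.7 to 84.4 CPM (median 59.7) in inhibitory and 0.568 ± 0.31 CPM in excitatory neurons. Kcnmb1, the smooth muscle subunit, was at 11.5 to 28.8 CPM (median 18.7) in the vascular class. Kcnmb1 (chr11:33863013-33873641) lies inside Kcnip1 on the other strand, and whether the counting used strand is not given in the sources used here. In the vascular class Kcnip1 was at 0.196 CPM, and in inhibitory neurons Kcnmb1 was at 0.0508 CPM.

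Of the calcium-activated SK genes, Kcnn2 was at 67.2 ± 18 CPM in astrocytes, 43.4 ± 12 in inhibitory neurons and 8.43 ± 1.8 in excitatory neurons, and the inhibitory and excitatory libraries did not overlap. Excitatory clusters were not all low, since Kcnn2 pooled to 73.7 CPM in Exc_26, against a median of 9.12 CPM over the neuronal clusters. Kcnn1 and Kcnn3 stayed under 10 CPM. The sodium-activated channels Kcnt1 (20.7 ± 3.3 and 20.9 ± 8.9 CPM) and Kcnt2 (17.6 ± 2.3 and 12.0 ± 9.7 CPM) overlapped between neuronal classes. Of the KCNE accessory subunits, Kcne4 was at 47.8 ± 11 CPM in the vascular class and 17.7 ± 15 in newly formed oligodendrocytes, and Kcne1l at 12.6 ± 7.7 CPM in astrocytes.

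Excitatory and inhibitory neurons were separated by 20 of the 96 entries, in the sense that all 12 P60 libraries of 1 class lay above all 12 of the other. Of these, 13 were higher in excitatory neurons (13.5% of the entries, where 4.04% of all 25989 genes were) and 7 were higher in inhibitory neurons (7.29%, where 2.67% of all genes were). Entries with almost no counts are in the denominators, and 41 of the 96 were under 10 CPM in every class. The 13 were Kcnma1, Kcnmb4, Kcnv1, Kcnf1, Kcng1, Kcns1, Kcnh3, Kcnh7, Kcnip2, Kcnip3, Kcnj4, Kcnk4 and Kcne3, and the 7 included Kcnc1, Kcnd3, Kcnip1, Kcnmb2, Kcnn2 and Kcns3. Kcne3 stands on few counts, with a mean of 0.611 CPM over the excitatory libraries and 0 over the inhibitory ones. Inhibitory sums held 134705 to 1837422 UMIs per P60 library, where excitatory sums held 4468669 to 33356157. At such a level a shallow sum can hold no UMI, and the part of depth in the separation of Kcne3 was not tested. Within 1 family, members stood on either side: Kcnmb4 and Kcnmb2 for BK, Kcnv1 and Kcns3 for silent subunits, Kcnip3 and Kcnip1 for KChIP.

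**Figure D2:**
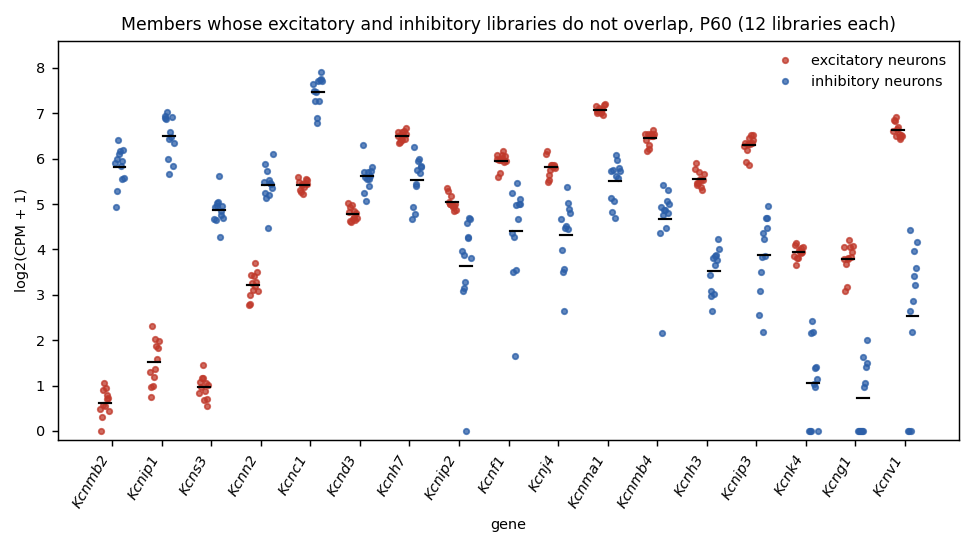
Level of 17 of the 20 separated members, those with a mean of at least 10 CPM in 1 of the classes, in excitatory (red) and inhibitory (blue) neurons, as log2(CPM + 1) on the vertical axis with 1 point per P60 library and a bar at the mean. The genes run from Kcnmb2 (57.9 CPM in inhibitory and 0.568 in excitatory neurons) at the left to Kcnv1 (8.02 and 98.5 CPM) at the right, and the red and blue points of a gene do not overlap.

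The L2 clusters divided these levels further. Over the 38 neuronal clusters, the 15 members with the highest ratio of highest to median pooled level included 11 whose highest cluster was inhibitory. Since 26 of the 38 clusters are excitatory, the median is mostly an excitatory level, and this ranking favours members that are high in inhibitory clusters. Inhib_6, the cluster with the highest Pvalb (1611 CPM), which marks fast-spiking interneurons, was the highest for Kcnc1 (424 CPM from 139 UMIs), Kcnmb2 (150 CPM), Kcnip2 (97.6 CPM), Kcnk3 (94.6 CPM) and Kcnab3 (88.5 CPM). Kcnc2 was highest in Inhib_2 (168 CPM) and Inhib_1 (156 CPM), the clusters with the highest Sst. Kcns3 was highest in Inhib_8 (54.8 CPM) and Inhib_7 (49.5 CPM), where Npy was at 15968 and 29563 CPM. High Npy did not go with high Kcns3 throughout. Npy was at 21260 CPM in Inhib_1, where Kcns3 was not above the 24.6 CPM of Inhib_3, its next cluster. Kcnip1 (232 CPM), Kcnn2 (91.6 CPM) and Kcnd3 (115 CPM) were highest in Inhib_12, a cluster of 30 P60 cells with Cck at 4741 CPM.

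Excitatory clusters had peaks of their own. Kcnk2, a mechanosensitive leak channel, pooled to 74.5 CPM in Exc_23 and 57.7 CPM in Exc_10, against a median of 8.76 CPM. Kcng1 was at 66.7 CPM in Exc_26, where the median was 3.83 CPM. Kcna5 was at 39.2 CPM in Exc_21, the cluster with Tshz2 at 2066 CPM, against a median of 1.60 CPM. Kcnh3 was highest in Exc_3, Exc_4 and Exc_5 (99.6, 93.4 and 90.6 CPM), the same clusters in which Kcnip3 was lowest among excitatory clusters (33.8, 29.0 and 37.0 CPM). Kcnip1, near 0 in most excitatory clusters, was at 64.5 CPM in Exc_21, which held 388 of its 427 UMIs in P60 excitatory neurons, and in each of 12 libraries it was between 34.8 and 85.3 CPM there. These are pooled values with the clusters built from the same cells, and no test was made.

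**Figure D3:**
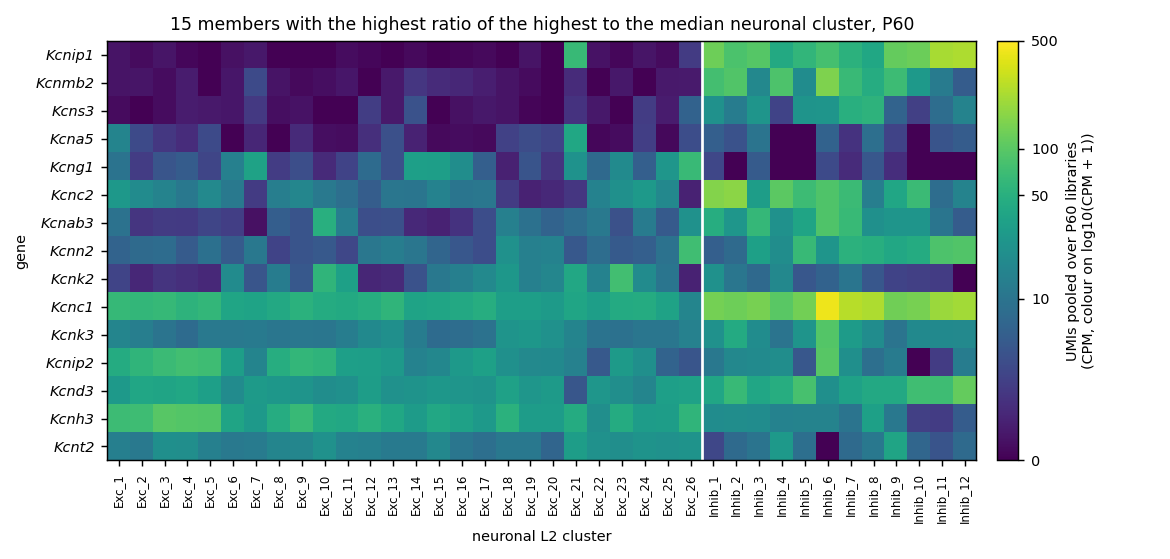
Heat map of the 15 members with the highest ratio of highest to median cluster (rows) over 26 excitatory and 12 inhibitory L2 clusters (columns, split by the white line), coloured by the CPM of UMIs pooled over P60 libraries on a log10(CPM + 1) scale. Kcnip1, Kcnmb2, Kcns3 and Kcnc1 are bright across the inhibitory columns, and Kcng1, Kcna5 and Kcnk2 reach their highest values in excitatory columns (66.7 CPM in Exc_26, 39.2 in Exc_21 and 74.5 in Exc_23), with other excitatory columns also bright for Kcnk2 (57.7 CPM in Exc_10) and Kcng1 (34.5 in Exc_7).

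The age comparison asks how the neurons and glia of the same classes differ between P21 and adult mice. In excitatory neurons 9 of the 65 members tested were called between P21 and the 6 P60 saline libraries (edgeR quasi-likelihood test, Benjamini-Hochberg adjusted p under 0.05 over all genes tested and a change above 1.5-fold), 3 higher and 6 lower at P60. Of all 13245 genes tested 19.3% were called, 8.18% up and 11.1% down, so the members' share was not above the background. The median log2 change of the tested members was 0.09, beside -0.00 over all genes. The other 31 entries were too low to be tested.

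Kcnk1, the leak channel that was highest in astrocytes, had the smallest adjusted p. It was at 128, 109 and 98.7 CPM in the P21 libraries and at 57.9 to 78.3 CPM (median 63.4) in the P60 saline libraries. The groups did not overlap, and the log2 change was -0.71 ± 0.11 (SE; edgeR adjusted p = 0.000369). Kcnn1, an SK channel, was at 10.1, 10.1 and 8.41 CPM at P21 and at 4.27 to 6.27 CPM at P60, also without overlap (log2 change -0.83 ± 0.13, edgeR adjusted p = 0.000436). Kcnk4, a leak channel of excitatory neurons, rose from 9.33, 9.50 and 8.70 CPM to between 11.6 and 16.1 CPM (log2 change 0.69 ± 0.11, edgeR adjusted p = 0.000402). These 3 members were called under the fit with cluster as a covariate, given below, which counts the clusters of a library largely as separate samples.

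The other 6 called members were low in excitatory neurons. Kcnj8, the vascular channel, was at 1.82, 1.71 and 1.38 CPM at P21 and at 0.121 to 0.556 CPM at P60 (log2 change -2.09 ± 0.35, edgeR adjusted p = 0.000514). Kcnip1 and Kcnmb2, which were high in inhibitory neurons, fell by 1.29 and 1.07 on the log2 scale, and Kcne3, an accessory subunit, fell by 0.83 but turned to 0.041 with the cluster as a covariate. Within Exc_21, the excitatory cluster with most of its UMIs, Kcnip1 changed by -0.59 without passing the test. Markers of most other classes were also higher in the P21 excitatory sums. The endothelial list was at 18.0 to 54.0 CPM at P21 and 2.01 to 8.55 CPM at P60, the list of pericyte and smooth muscle markers at 20.5 to 27.8 and 6.94 to 14.5 CPM, and Gad1, Gad2 and Slc32a1 together at 8.85 to 10.5 and 0.362 to 4.46 CPM. Mature oligodendrocyte markers were at 265 to 546 CPM at P21 and 46.5 to 130 CPM at P60, and red blood cell markers at 788 to 1288 and 87.1 to 410 CPM. The astrocyte list had the other order, with 40.4 to 98.8 CPM at P21 and 62.6 to 145 CPM at P60. Fos, Jun, Junb and Egr1, genes known to respond to tissue dissociation, summed to 752 to 789 CPM at P21 and 290 to 430 CPM at P60 in excitatory neurons, without overlap, and to 649 to 755 and 119 to 686 CPM in inhibitory neurons, with overlap. The part of these lists in the age changes was not tested. Kcnh5, an EAG channel, was at 2.30, 0.935 and 0.798 CPM at P21 and 2.30 to 4.03 CPM at P60 (log2 change 1.22 ± 0.32, edgeR adjusted p = 0.00828). Kcnab3 was at 5.76, 2.73 and 2.47 CPM and 4.83 to 9.46 CPM (log2 change 1.05 ± 0.27, edgeR adjusted p = 0.00903). For Kcnh5 and Kcnab3, P21 replicate 1 was the highest of the P21 libraries and lay at or within the P60 range.

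P21 replicate 1 stood apart from the other P21 libraries in excitatory neurons, with Slc17a7, Neurod6 and Nrgn summing to 4238 CPM, against 2021 and 2070 CPM in the others. Without it 15 of 66 members were called in excitatory neurons in place of 9 of 65, where 21.1% of all genes were called. Several members changed by less than 1.5-fold with an adjusted p under 0.05, among them Kcnf1 (log2 change -0.54 ± 0.09), Kcnip4 (0.57 ± 0.12), Kcnv1 (0.56 ± 0.12) and Kcnip3 (0.51 ± 0.12). With no fold minimum 19 of the 65 members passed, where 40.4% of all genes did. The calls of Kcne3 and Kcnmb2 were lost when single libraries were left out, Kcne3 for 7 of the 9 libraries and Kcnmb2 for 4.

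In inhibitory neurons 12 of the 41 members tested were called, 4 higher and 8 lower at P60, where 14.0% of all 8898 genes tested were called, 5.73% up and 8.29% down. The median log2 change of the tested members was -0.10. Kcnc2, a Kv3 channel, fell most. It was at 201, 269 and 299 CPM at P21 and at 44.7 to 105 CPM (median 85.2) at P60, so the groups did not overlap (log2 change -1.64 ± 0.20, edgeR adjusted p = 0.000101). The BK pore gene and its neuronal beta subunit were lower at P60 in these sums, while with the cluster as a covariate neither was called and the beta subunit turned to 0.20. Kcnma1 was at 103, 95.0 and 104 CPM at P21 and 27.5 to 54.8 CPM at P60 (log2 change -1.12 ± 0.16, edgeR adjusted p = 0.000213). Kcnmb4 was at 52.6, 51.4 and 57.4 CPM and at 3.44 to 31.0 CPM (log2 change -1.06 ± 0.22, edgeR adjusted p = 0.00266).

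Kcnip2 fell by 1.39 ± 0.24 on the log2 scale (53.8, 49.2 and 36.8 CPM at P21, 7.42 to 24.4 CPM at P60), and the leak channel Kcnk3 fell by 0.85 ± 0.22. With the cluster as a covariate these changes were -0.23 ± 0.24 and -0.03 ± 0.25, and neither was called. Kcnk1 fell here too, from 111, 116 and 94.7 CPM to between 52.0 and 75.6 CPM (log2 change -0.69 ± 0.14, edgeR adjusted p = 0.00266). Kcnd2 fell by 0.78 ± 0.18 and Kcnab3 by 0.60 ± 0.20. For all 8 members that fell, every P21 library lay above every P60 saline library.

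The 4 members that rose in inhibitory neurons were Kcnh3, Kcnv1, Kcnip3 and Kcnn2. Kcnh3 was at 5.18, 3.35 and 3.52 CPM at P21 and 6.87 to 17.7 CPM at P60 (log2 change 1.70 ± 0.35, edgeR adjusted p = 0.00259). Kcnv1 was at 3.19, 3.91 and 3.02 CPM at P21 and from 0 to 20.6 CPM at P60, with 2 of 6 saline libraries at 0 (log2 change 1.57 ± 0.53). Kcnip3 rose by 1.30 ± 0.39 and Kcnn2 by 0.80 ± 0.19. With the cluster as a covariate these changes were 0.52 ± 0.27 and 0.02 ± 0.26, and neither was called. The groups did not overlap for Kcnh3 and Kcnn2 and overlapped for Kcnv1 and Kcnip3. The inhibitory sums of the saline maintenance libraries held 134705 and 291082 UMIs, so low CPM values there stand on few UMIs. Kcnh3, Kcnv1 and Kcnip3 are the members that were higher in excitatory neurons. The excitatory markers Neurod6 (log2 change 2.02) and Slc17a7 (0.97) were higher in the inhibitory sums at P60 without passing the test, and the excitatory list without Snap25 ran from 22.3 to 328 CPM at P60 and 68.7 to 208 CPM at P21. The inhibitory markers Gad1, Gad2 and Slc32a1 summed to 2326 to 2740 CPM at P21 and 2972 to 4113 CPM at P60, and microglial markers to 46.4 to 66.5 and 0 to 33.0 CPM, without overlap for either. The astrocyte list was at 73.0 to 127 CPM at P21 (median 124) and 113 to 478 CPM at P60 (median 270), with overlap. The part of these markers in the inhibitory age changes was not tested. With single libraries left out, the call of Kcnab3 was lost for 7 of the 9, that of Kcnip3 for 4 and that of Kcnv1 for each of the 3 P21 libraries.

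**Figure D4:**
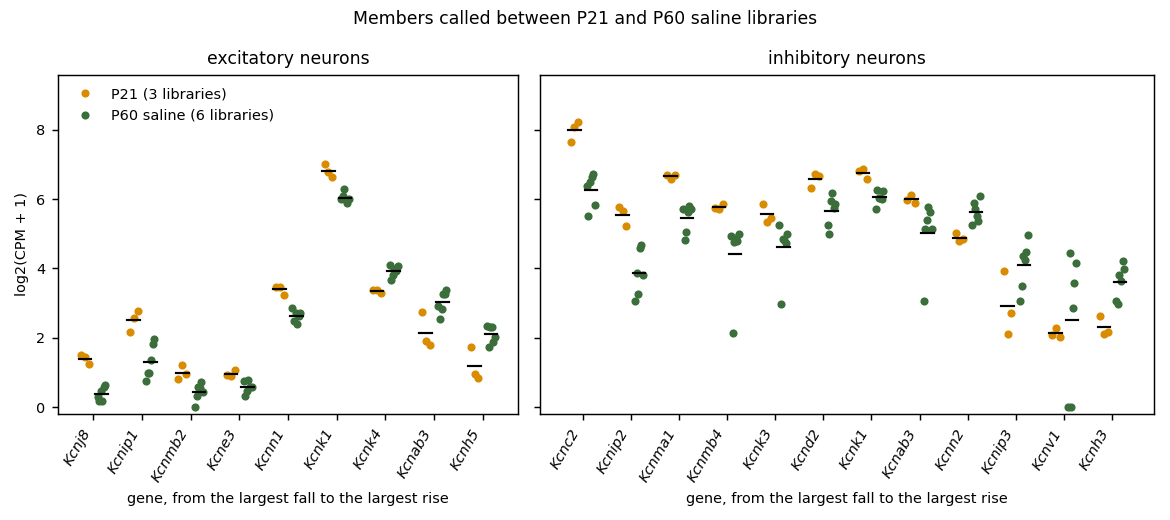
Levels of the 9 members called in excitatory neurons (left) and the 12 called in inhibitory neurons (right) between ages, as log2(CPM + 1) with 1 point per library, P21 in orange (3 libraries), P60 saline in green (6 libraries) and a bar at the mean. Kcnc2 in inhibitory neurons and Kcnk1 in both classes lie higher at P21 in every library, and Kcnv1 in inhibitory neurons has green points from 0 to 20.6 CPM.

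The make-up of the inhibitory class differed between ages. Inhib_2, a cluster with high Sst, held 35.4% of the inhibitory cells at P21 (at least 32.2% in each library) and 9.40% over all 12 P60 libraries, cocaine included (0% to 14.6%). Inhib_6 held 16.8% and 3.69%, with at most 6.42% in a P60 library. Inhib_7 held 7.90% (4.31% to 13.8%) and 32.9% (15.8% to 51.6%). Inhib_2 was the highest cluster for Kcnc2, and Inhib_6 for Kcnc1, Kcnmb2, Kcnip2, Kcnk3 and Kcnab3. Among inhibitory clusters Kcnmb4 too was highest in Inhib_2 (113 CPM). The P21 cells were given the cluster of the P60 cells they correlated with best, so the shares depend on that assignment. Within Inhib_2 0 of 24 members tested were called by edgeR (0.925% of all genes; 5 members had an unadjusted p under 0.05), and Kcnc2 changed by -0.18 ± 0.23 on the log2 scale. Within Inhib_7 0 of 24 were called (2.59% of all genes; 4 with an unadjusted p under 0.05), and Kcnc2 was higher at P60 by 1.58 ± 0.47 (edgeR adjusted p = 0.0678). Markers within Inhib_7 differed too, pooled over the P21 and over all P60 libraries. Pvalb was at 0 and 256 CPM, Sst at 26.9 and 476 CPM and Npy at 40013 and 29563 CPM. Their part in the Kcnc2 value was not tested. Inhib_9 had 1 member tested and 0 called (1.13% of all genes). Kcnc2 was thus called lower in neither of the clusters in which it could be tested.

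A fit of sums per library and cluster with the cluster as a covariate, added after seeing the data (limma voom with the library as a random block), called 4 of the 65 members in excitatory neurons (14.0% of all genes) and 6 of the 41 in inhibitory neurons (8.06% of all genes). In excitatory neurons these were Kcnk1 (log2 change -0.73 ± 0.07), Kcnn1 (-0.73 ± 0.20), Kcnk4 (0.60 ± 0.18) and Kcnab3 (0.84 ± 0.26). In inhibitory neurons they were Kcnk1 (-0.84 ± 0.19), Kcnc2 (-0.68 ± 0.23), Kcnab3 (-0.71 ± 0.23), Kcnip1 (-0.64 ± 0.17), Kcnh3 (1.33 ± 0.27) and Kcnv1 (1.00 ± 0.27). Kcnip1 was not among the 12 called on library sums. That fit treats the clusters of a library almost as separate samples in inhibitory neurons (estimated correlation 0.034 over 65 sums). In excitatory neurons it does so in large part (0.116 over 226 sums). Its SE and calls thus rest on more sums than there are libraries. The falls of Kcnma1 (-0.51 ± 0.22), Kcnd2 (-0.49 ± 0.19), Kcnip2 and Kcnk3 in inhibitory neurons were not called by that fit, nor were the rises of Kcnip3 (0.52 ± 0.27) and Kcnn2 (0.02 ± 0.26). Kcnk1 was called lower in both neuronal classes with and without the covariate.

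The age change differed between the neuronal classes for 15 of 58 members in a fit of both classes with the library as a term (edgeR, no fold minimum; 11.1% of all genes), 11 with a more negative change in inhibitory neurons and 4 with a more positive one. Kcnc2 had a difference of -2.18 ± 0.23 on the log2 scale (edgeR adjusted p = 3.97e-05), since it was lower at P60 in inhibitory neurons and 0.57 ± 0.15 higher in excitatory neurons. Kcnab3 likewise was lower in inhibitory and higher in excitatory neurons (difference -1.74 ± 0.28, edgeR adjusted p = 0.000183). Kcnip2 (-1.49 ± 0.21) and Kcnma1 (-0.99 ± 0.14) followed, and Kcnh3 (1.53 ± 0.32) and Kcnj10 (2.34 ± 0.73) were the most positive. The Kv3 gene Kcnc1 (-0.69 ± 0.14) differed in the same direction as Kcnc2. The differing cluster make-up of the inhibitory class and its marker levels, the astrocyte list among them, stand beside these values. Their part was not tested in this fit.

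Outside neurons few members could be tested and 1 was called. In the vascular class 1 of 19 was called (12.7% of all genes). Kcnq1 was at 17.6, 17.2 and 14.6 CPM at P21 and at 3.43 to 10.9 CPM (median 5.66) at P60, without overlap (log2 change -1.50 ± 0.27, edgeR adjusted p = 0.00139). Kcnj8, the vascular inward rectifier, was at 301, 474 and 389 CPM and 261 to 338 CPM, a change of -0.49 ± 0.14 that was under 1.5-fold (edgeR adjusted p = 0.0239). Kcnmb1 (-0.05 ± 0.22) and Kcne4 (0.05 ± 0.22) did not pass. Kcnq1 was called in the vascular class with each of the 9 libraries left out in turn. Without P21 replicate 1, 5 members were called outside neurons, namely Kcnq1, Kcnj8 (-0.63) and Kcnk3 (1.68) in the vascular class, Kcne1l (-3.00) in astrocytes and Kcna6 (1.42) in mature oligodendrocytes. In that setting 13.3% of all genes were called in the vascular class, 5.60% in astrocytes and 16.6% in mature oligodendrocytes. Without replicate 1 of saline 48 h withdrawal Kcnk3 was the only addition, and without replicate 1 of saline 15 d withdrawal Kcnk1 (-1.64) was. Whether fewer cells of a vascular type or less RNA per cell lies behind such a value cannot be told apart in these sums. In the vascular class the pericyte and smooth muscle list was at 3757 to 4659 CPM at P21 and 5016 to 7222 CPM at P60, and red blood cell markers at 79292 to 102898 and 41617 to 67857 CPM. Neither list overlapped between ages, and their part in these values was not tested.

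In mature oligodendrocytes 0 of 4 members were called by edgeR (17.8% of all genes). Kcna1 was at 863 to 1036 CPM at P21 and 711 to 1149 CPM at P60 (log2 change -0.29 ± 0.15), and Kcnj10 and Kcnk13 changed by -0.13 ± 0.17 and 0.18 ± 0.39. In astrocytes 0 of 7 were called (1.11% of all genes), with 2 members at an unadjusted p under 0.05. Fos, Jun, Junb and Egr1 summed to 2040 to 6724 CPM in astrocytes at P21 and 479 to 1690 CPM at P60, without overlap, and their part was not tested. Kcnk1 there changed by -0.84 ± 0.33 (edgeR adjusted p = 0.298) and Kcnj10 by -0.74 ± 0.21 (edgeR adjusted p = 0.119). Kcnk1 was called there without a filter on low counts (edgeR adjusted p = 0.0104) and Kcnj10 with all 12 P60 libraries (edgeR adjusted p = 0.0355). In newly formed oligodendrocytes 0 of 3 were called (1.94% of all genes), and in microglia no member was high enough to test (0.726% of all genes). The unadjusted count was 0 in both oligodendrocyte classes, and DESeq2 called 0 members in these 4 classes. Oligodendrocyte precursors had 10 cells or more in only 1 P21 library and were not compared.

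The 26 excitatory clusters, fitted on their own, gave 62 calls of members among 752 member tests (8.24%), where 11.3% of all tests were called. The calls were 24 up and 38 down and fell on 20 of the 44 members tested and on 24 of the clusters. How many of all genes were called in at least 1 cluster was not counted. Kcnk1, Kcnf1 and Kcnip3 made up 36 of the 62. Kcnk1 was lower at P60 in all 26 clusters, with a median log2 change of -0.67, and was called in 13, between -1.07 and -0.65. Kcnf1, the silent Kv subunit, was lower in 24 of 26 and called in 13 (median -0.60), or in 8 without P21 replicate 2 and 8 without P21 replicate 3. Kcnip3, the KChIP, was higher in 24 of 26 and called in 10 (median 0.59), or in 14 without P21 replicate 1 and 6 without P21 replicate 3. Kcna6 was higher in 25 of 25 clusters with a median of 0.37 and was called in 2. The clusters share libraries, so these counts are not independent. The total ran from 41 calls without P21 replicate 3 to 98 without P21 replicate 1. The share of all tests called over the clusters in those settings was not counted.

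**Figure D5:**
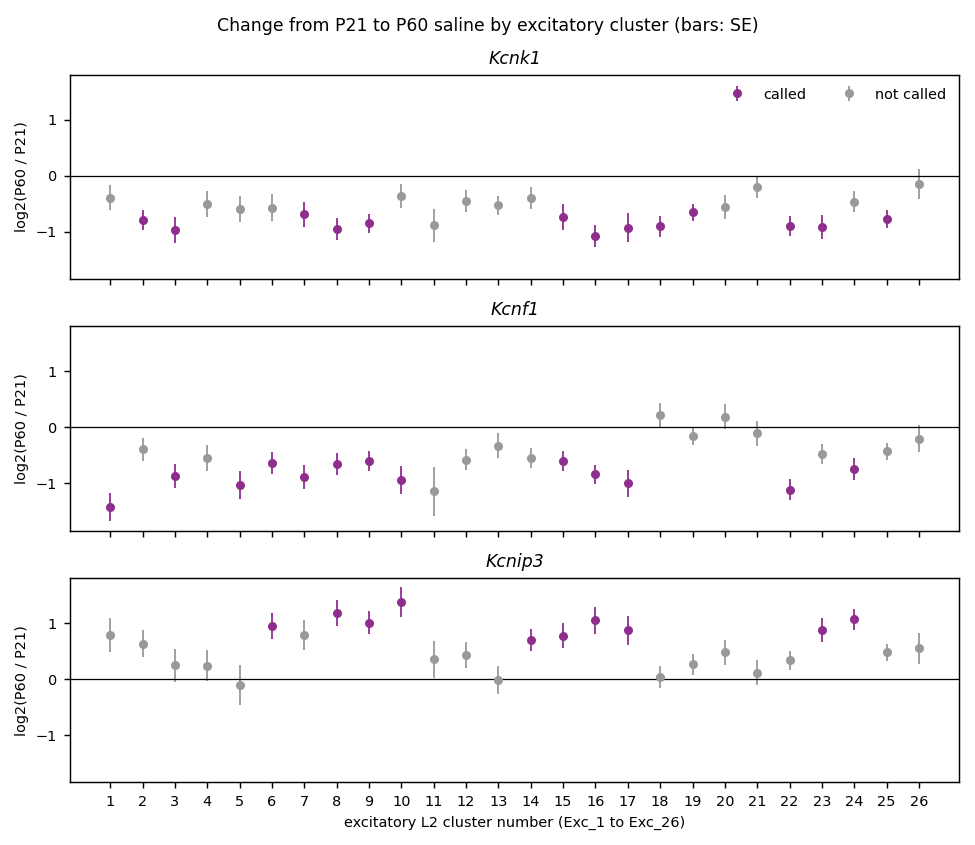
Log2 change from P21 to P60 saline of Kcnk1, Kcnf1 and Kcnip3 (panels) in each of the 26 excitatory L2 clusters (horizontal axis), with points at the edgeR estimate, bars of 1 SE and called clusters in purple. Kcnk1 is below 0 in all 26 clusters and called in 13, Kcnf1 is below 0 in 24, and Kcnip3 is above 0 in 24.

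The cocaine comparison asks whether self-administration and withdrawal changed these genes at each Period. No member was called at any Period by edgeR in the classes fitted, and DESeq2 called 0 as well. Astrocytes, oligodendrocyte precursors and newly formed oligodendrocytes were compared only after 48 h and 15 d, since at maintenance a saline library of each had under 10 cells. Without replicate 2 of saline 15 d withdrawal, 1 member was called, Kcnk1 in astrocytes after 15 d of withdrawal, higher with cocaine by 1.22 on the log2 scale (1.13% of all genes called). That leaves 1 saline library after 15 d, which is assumed to vary like the other groups. In excitatory neurons the calls over all genes were 0.0% at maintenance, 0.0% after 48 h and 0.706% after 15 d, and 7, 4 and 2 of the 65 members tested had an unadjusted p under 0.05, where 6.61%, 4.94% and 6.86% of all genes did. In the 7 other classes together 0.0976% of all tests were called. The median SE of a member's log2 difference in excitatory neurons was 0.19 at maintenance, 0.18 after 48 h and 0.16 after 15 d.

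The members with the smallest p are given as values. At maintenance Kcnv1 was at 96.8 and 89.3 CPM in the cocaine and 114 and 113 CPM in the saline libraries (log2 difference -0.31 ± 0.11, edgeR adjusted p = 0.735). Kcna6 was at 109 and 123 against 91.1 and 87.4 CPM, and Kcnj10, the glial channel, at 0.791 and 0.498 against 0 and 0.121 CPM. None of these passed the test. After 48 h Kcnk3 was at 11.4 and 12.5 against 7.63 and 9.39 CPM, Kcnd3 at 30.4 and 28.0 against 23.1 and 24.6 CPM and Kcng1 at 13.0 and 17.5 against 8.00 and 12.7 CPM. In each of these the cocaine libraries were above the saline ones, with adjusted p of 0.977 to 0.980 by edgeR.

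After 15 d Kcnk1 had the smallest p among members in excitatory neurons. It was at 84.8 and 86.0 CPM in the cocaine and 57.9 and 63.6 CPM in the saline libraries (log2 difference 0.54 ± 0.15, edgeR adjusted p = 0.155). The difference was 0.06 ± 0.16 at maintenance and -0.12 ± 0.16 after 48 h, and the test of a difference between Periods gave an adjusted p of 0.833 by edgeR. Kcnk1 also had a difference of 0.53 ± 0.19 in inhibitory neurons and of 0.67 ± 0.26 in astrocytes after 15 d (edgeR adjusted p = 0.355 and 1.00). Kcng2 was at 1.80 and 1.23 against 0.861 and 0.556 CPM, and Kcna1 at 144 and 180 against 136 and 146 CPM. All of these libraries come from the same 4 pools, so the classes are not independent.

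Over the 3 Periods together 0 of 141 member tests were called by edgeR (0.00689% of all tests), with 16 at an unadjusted p under 0.05 (6.27% of all tests), and between Periods 0 of 141 were called (0.0138% of all tests), with 5 at an unadjusted p under 0.05 (4.56% of all tests). In the 14 excitatory clusters that could be fitted, 0 of 459 member tests per Period were called (0.437% of all tests over the Periods), with 25, 26 and 27 at an unadjusted p under 0.05 at maintenance, 48 h and 15 d (5.39%, 4.90% and 6.64% of all tests). Kcnk1, looked at here after its values were seen, was higher in the cocaine libraries in 14 of 14 clusters after 15 d (median log2 difference 0.48, from 0.17 to 0.87), in 7 of 14 at maintenance and in 6 of 14 after 48 h. Its smallest adjusted p was 0.0791 by edgeR, in Exc_4. The clusters share libraries, so these counts are not independent and repeat the difference seen in the excitatory sums. How many of all genes had the same direction in every cluster was not counted.

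Genes of proteins that bind potassium channels were taken from a list of 20 (Kv4 and Kv2 partners, BK gamma subunits, sulfonylurea receptors, anchoring proteins of Kv1 and Kv2, and the related HCN channels). In excitatory neurons 0 of 16 tested rose and 1 fell with age (8.18% of all genes rose and 11.1% fell). That gene was Lrrc55, a BK gamma subunit, with a log2 change of -1.08 ± 0.15 (edgeR adjusted p = 0.000134). In inhibitory neurons 1 of 12 rose, Lgi1, a secreted protein linked to Kv1 channels (0.69 ± 0.18), and 0 fell (5.73% and 8.29% of all genes). In mature oligodendrocytes 5 were tested, where 7.55% of all genes rose and 10.3% fell. Cntn2, which gathers Kv1 channels beside nodes, rose (0.94 ± 0.17) and Vapa, which anchors Kv2 channels, fell (-0.83 ± 0.22). In these sums mature oligodendrocyte markers were at 83176 to 111669 CPM at P21 and 50650 to 65453 CPM in P60 saline libraries. Newly formed oligodendrocyte markers were at 179 to 200 and 57.5 to 158 CPM, and microglial markers at 67.6 to 240 and 7.51 to 31.2 CPM. The part of these lists was not tested. No partner was called for cocaine.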

How the data were processed

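Single-cell RNA was measured with the 10x Chromium platform in 12 P60 and 3 P21 libraries of mouse PFC. The authors deposited UMI counts per gene and cell, and a table with the cluster of each cell; the submitters' processing notes name Cell Ranger, Seurat 2.1.0 and mm9. Per the authors, cells with few genes, many genes (possible doublets) or high mitochondrial RNA had been removed, and doublets were also assessed by hand after clustering. Here 24822 of 31791 barcodes at P60 and 10538 of 12004 at P21 were used, and no doublet caller was run. The study's methods name a higher minimum of genes for neurons at P60 and only the lower minimum for P21, while its results state the same criteria. The part of this in the neuronal age comparison was not tested. P21 cells carry P60 clusters given to them by correlation. The scaled expression matrix of the series was not used here.

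Counts were summed per library and class or L2 cluster (at least 10 cells), leaving out mitochondrial and ribosomal protein genes. CPM are relative to the total of the genes left, so a change in a few abundant genes shifts all others. Intervals and SE cover the spread between libraries, except in the fit with the cluster as a covariate, which also draws on the clusters within a library. Tests used edgeR 4.0.16 (quasi-likelihood, robust, TMM, filterByExpr) in R 4.3.3, fitted over all genes, with Benjamini-Hochberg adjustment. A call needed an adjusted p under 0.05 and a change above 1.5-fold. Log2 changes are P60 saline minus P21, or cocaine minus saline. Alternatives used DESeq2 1.42.0 and limma 3.58.1. Scripts were tested on simulated data.

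Members and lists were chosen with earlier results of these data known. Named genes are, per class, up to 4 members with the highest ratio to the next class; per family, the highest in each neuronal class; members called with age (up to 5 rises and 5 falls where more than 10 were called, with the other 2 of the inhibitory class added); in excitatory neurons, the 3 with the smallest p for cocaine; and 15 members by cluster ratio (at least 20 UMIs and 20 CPM). Others were named after their values were seen. Results for some members are not reported here.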

Additional observations from a re-analysis of the deposited data

Results flagged for a closer look

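In inhibitory neurons Kcnmb4 was at 3.44 CPM in saline maintenance replicate 2, far below the other 5 P60 saline libraries, which lay between 25.96 and 31.0 CPM. Of 22 sets of 6 libraries examined this was the only one with such a gap, and chance alone gives about 1 in 20. That library held 291082 inhibitory UMIs, where the other P60 saline libraries held 134705 to 1641602, and the part of depth was not tested.

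The age change differed between inhibitory and excitatory neurons, by the test of the difference itself, for 15 members, of which 14 are given (log2, inhibitory minus excitatory). It was more negative in inhibitory neurons for Kcnc2 (-2.18), Kcnab3 (-1.74), Kcnip2 (-1.49), Kcnma1 (-0.99), the Kcnb2 entry ENSMUSG00000090498 (-0.88), Kcna6 (-0.85), Kcnmb4 (-0.72), Kcnc1 (-0.69), Kcnd2 (-0.65) and Kcnab1 (-0.50). It was more positive for Kcnn2 (0.87), Kcnmb2 (1.06), Kcnh3 (1.53) and Kcnj10 (2.34). Kcnj10 is a glial channel and was under 2 CPM in both neuronal classes at P60.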

How the results depend on the processing

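The calls of the age comparison were 9 members in excitatory neurons, 12 in inhibitory neurons and 1 in the other classes. Without a fold minimum they were 19 in excitatory neurons, where 40.4% of all genes passed, and Kcnj8 joined Kcnq1 in the vascular class. With only the saline maintenance libraries at P60 they were 3 of 45 tested in inhibitory neurons (2.04% of all genes) and 5 in the other classes, each in the vascular class with 19 tested (11% of all genes), and thinned to the smallest sum they were 2 of 10 in inhibitory neurons (8.67%) and 0. In the other classes 8 were called without a filter on low counts (where 1.03% to 8.21% of all genes were called, by class), 12 with classes from the deposited CellType column (4 of 8 in microglia, 4 of 16 in oligodendrocyte precursors and 4 of 28 in the vascular class, where 42.4%, 20.4% and 13.4% of all genes were called), and 4 with all 12 P60 libraries (0.560% to 16.9%). With the cluster as a covariate, added after seeing the data, 4 and 6 were called in excitatory and inhibitory neurons, and 2 signs turned, Kcne3 in excitatory neurons to 0.041 and Kcnmb4 in inhibitory neurons to 0.20. Leaving out each library in turn gave 7 to 15 calls in excitatory neurons, 9 to 12 in inhibitory neurons, 1 to 5 in the other classes, 41 to 98 over the excitatory clusters and 10 to 15 for the difference between neuronal classes. The highest numbers in excitatory neurons, the other classes and the clusters came without P21 replicate 1, and the lowest over the clusters without P21 replicate 3. With single libraries left out, the shares of all genes called were not counted for the clusters and for the difference between neuronal classes. For the other classes 2 were called without replicate 1 of saline 48 h withdrawal and 2 without replicate 1 of saline 15 d withdrawal. Cocaine calls at each Period ran from 0 to 1 (a rise of Kcnk1 in astrocytes after 15 d, without replicate 2 of saline 15 d withdrawal), and over the Periods 1 member was called without a filter (a rise of Kcnip1 in excitatory neurons). DESeq2, RLE scaling, a minimum of 30 cells, kept mitochondrial genes and summing P21 libraries 2 and 3 moved none of these counts by more than 1.5 times. Of the members named for age, Kcne3 and Kcnmb2 in excitatory and Kcnab3, Kcnip3 and Kcnv1 in inhibitory neurons lost their call most often. No paired analysis was possible because the replicate numbers used here follow the order of deposit and pair no libraries between groups. Depth limits the rest: with 2 libraries per treatment and Period, and with as few as 19 inhibitory cells in a P60 library, 65 of the 96 entries could be tested for age in excitatory neurons, 41 in inhibitory neurons and 0 to 19 in the other classes.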
